A study of Macaca fascicularis with 16 samples.

Results

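The infrarenal aorta, the segment of the abdominal aorta below the renal arteries, was compared with the suprarenal aorta, the abdominal segment just above them. The comparison uses 8 of the 16 RNA sequencing libraries of the series, taken by their labels: 4 infrarenal libraries and 4 suprarenal libraries, each numbered 1 to 4. All came from aorta of normal young cynomolgus monkeys (Macaca fascicularis) at baseline, so both regions are untreated, and the other 8 libraries are from the descending and ascending thoracic aorta. The labels give neither sex nor exact age, and they do not say which libraries share an animal or whether all layers of the wall were kept. P-values therefore measure the spread between libraries within regions, estimated from all 16 libraries, and this spread may be technical. The study names the association of NOTCH3 with elastic fibres of the infrarenal aorta as its subject, and the neighbouring abdominal segment is the closest comparison that its design allows.

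The wall of the aorta is built of smooth muscle cells between elastic lamellae, and the number of lamellae falls along its length. The infrarenal segment is the usual site of abdominal aortic aneurysm in humans. Smooth muscle of different segments arises from different embryonic sources and keeps a positional code of HOX genes, in which genes at the 5′ end of each cluster are used further towards the tail. In Notch signalling, a ligand such as JAG1 on one cell binds a receptor such as NOTCH3 on its neighbour, the cleaved receptor enters the nucleus with RBPJ, and repressors of the HES and HEY families are switched on. In arteries this pathway acts in the maturation and upkeep of smooth muscle.

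Library totals were 17630057, 16639798, 14402824 and 17054814 counts in infrarenal replicates 1 to 4 and 16279334, 21407514, 14649689 and 16544181 counts in suprarenal replicates 1 to 4. CPM are counts scaled to the library total times its TMM normalization factor. The labelled tissue carried the defining smooth muscle markers in every library, with MYH11 at 5680.0 to 7584 CPM in infrarenal and 2952 to 12525 CPM in suprarenal libraries. One library, infrarenal replicate 1, differed most from the others. Its normalization factor was 0.736, against 0.999 to 1.06 in the other infrarenal and 0.977 to 1.08 in the suprarenal libraries, and it held 17230 genes with a count, against 19152 to 19759 in the other 7. Its 67 ribosomal protein genes summed to 89772 CPM, where the other infrarenal libraries held 28200.1 to 32828 CPM and the suprarenal libraries 28630.5 to 38964 CPM. Suprarenal replicate 3 had the lowest contractile and the highest endothelial and lymphocyte marker sums of the 8, which are given with the cell type markers. Some of the results that rest on either library are given with and without it, but not all.

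Few genes separated the regions, and most of them were lower below the kidneys. With edgeR's quasi-likelihood test on all 16 libraries and no term for the replicate number, 32 of 15926 tested genes (0.201%) passed a Benjamini-Hochberg adjusted p of 0.05, 3 higher (0.0188%) and 29 lower (0.182%) in infrarenal aorta. The 3 higher genes were PCP4, HOXA10 and PTP4A1. With the replicate number as a block, 84 genes passed (0.527%), 21 higher (0.132%) and 63 lower (0.396%), and when scaled by library totals alone the block fit called 9 higher and 71 lower. Both fits called 31 genes, and LRP1B was called without the block only. All 84 had the same sign in the 4 pairs of libraries of equal number, as did 1944 of all 15926 tested genes. The fit with the block favours such genes, so this is no separate support. The same background holds for each gene said below to be higher or lower in 4 of 4 pairs. The infrarenal and suprarenal values did not overlap in 31 of the 32 and in 70 of the 84, where 2.43% of all tested genes did not overlap. Unadjusted p-values under 0.05 were found for 918 genes (5.76%) without the block and 1117 (7.01%) with it. When the spread was estimated from the 8 compared libraries alone, edgeR called 0 genes without the block and 1 with it. Genes are said below to have risen or fallen where they passed in the fit with the block or without it, and the fit is named. Where no other tool is named, "called" and "passed" refer to edgeR. Single libraries decided much of the count. Of the 32 genes called without the block, 23, 3, 14 and 11 were still called without infrarenal replicate 1, 2, 3 or 4, and 8, 28, 30 and 12 without suprarenal replicate 1, 2, 3 or 4. Of the 84 called with the block, 50, 17, 32 and 18 were still called without infrarenal replicate 1, 2, 3 or 4, and 0, 59, 64 and 11 without suprarenal replicate 1, 2, 3 or 4. The smallest adjusted p of edgeR without suprarenal replicate 1 was 0.0517 with the block, with 776 genes at an unadjusted p under 0.05, so each call with the block below ends without that library. PCP4, KLHL4 and MTUS2 were called without the block in each of the 16 fits that left out 1 library of the series, with adjusted p up to 0.0468.

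**Figure D1:**
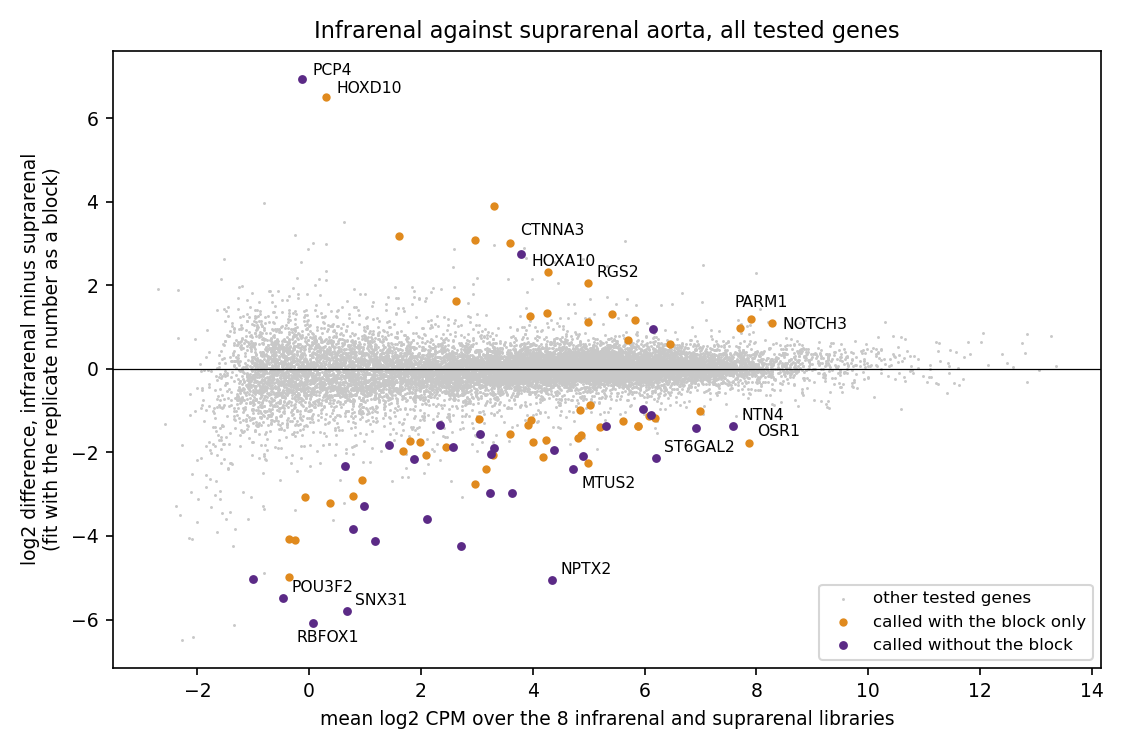
Each point is 1 of the 15926 tested genes, with its mean log2 CPM over the 8 libraries on the x axis and the fitted log2 difference, infrarenal minus suprarenal, on the y axis. The 32 genes called without the block are purple and the 53 called with the block only are orange, and more of them lie below 0 than above it.

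The HOX genes gave the clearest order. Of the 15 tested posterior HOX genes, those of paralog group 6 and above, 15 were higher in infrarenal aorta without the block and 14 with it, with a median log2 difference of 0.83 without and 1.04 with the block, where the median of all tested genes was -0.0034 and -0.010. HOXA10 rose in both fits, and HOXA9 and HOXD10 rose with the block. For 5 of the 15, HOXA9, HOXA10, HOXD8, HOXD9 and HOXD10, all infrarenal libraries lay above all suprarenal ones, where 0.867% of all tested genes did so. Of the 13 tested genes of groups 1 to 5, 7 were higher and 6 lower, HOXC4 rose with the block and HOXA4 fell in both fits. In bulk tissue, fewer cells of a type and less RNA per cell cannot be told apart.

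HOXA10 (GeneID 102133638), a homeobox factor of the posterior trunk, was at 40.03, 42.3, 42.5 and 24.8 CPM in infrarenal replicates 1 to 4, against 3.15, 13.3, 5.71 and 2.66 CPM in suprarenal replicates 1 to 4. The lowest infrarenal library, replicate 4, still lay above the highest suprarenal library, replicate 2. The log2 difference was 2.58, SE 0.44, adjusted p = 0.0293 without the block and 2.76, SE 0.37, adjusted p = 0.00973 with it. The call with the block ended without suprarenal replicates 1 and 4 (adjusted p up to 0.0602). HOXA9, its neighbour in the cluster, stood at 51.3, 47.5, 44.5 and 34.5 CPM in the infrarenal libraries, against 5.57, 25.8, 9.01 and 3.78 CPM in the suprarenal libraries. Suprarenal replicate 2 was again the highest of its group, and the groups did not overlap. The difference of HOXA9 was 2.32, SE 0.45, adjusted p = 0.0421 with the block and did not pass without it (adjusted p = 0.186). HOXD10 was close to absent above the renal arteries, at 6.86, 14.7, 16.1 and 2.55 CPM in the infrarenal libraries, against 0, 0, 0.571 and 0 CPM in the suprarenal libraries, which are 624 and 9 counts in all. Only suprarenal replicate 3 held any of the 9. HOXD10 passed with the block (adjusted p = 0.0243) and not without it (0.0522), and a fitted change against libraries at 0 depends on the prior count. HOXD9 did not pass in either fit of edgeR, while DESeq2, and limma voom with and without the block, called it, with 16.9 to 39.3 CPM in infrarenal and 0.9897 to 12.5 CPM in suprarenal libraries and a difference of 2.96, SE 0.76, adjusted p = 0.158 with the block. HOXA11 and HOXC9 were higher in all 4 pairs, by 2.15 (SE 0.73, adjusted p = 0.388) and 1.93 (SE 0.55, adjusted p = 0.224) on the log2 scale with the block.

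Genes nearer the 3′ end of the clusters did not move as one. HOXA4 was at 2.24, 2.41, 4.52 and 3.28 CPM in the infrarenal libraries, against 12.4, 8.61, 11.9 and 12.99 CPM in the suprarenal libraries. Every infrarenal library lay below every suprarenal one, and the difference was -1.88, SE 0.31, adjusted p = 0.0209 without and -1.88, SE 0.33, adjusted p = 0.0301 with the block. HOXC4, of the same paralog group, went the other way, at 27.00, 38.4, 29.6 and 26.8 CPM in the infrarenal libraries, against 14.4, 18.8, 8.25 and 9.21 CPM in the suprarenal libraries. Its difference was 1.35, SE 0.24, adjusted p = 0.0303 with the block, and it did not pass without it (adjusted p = 0.23). HOXB4 had a difference of -0.30 and HOXD4 of 1.21 with the block, and neither passed (adjusted p = 0.834 and 0.748). HOXC5 was lower in all 4 pairs without passing (-0.65, SE 0.19, adjusted p = 0.271 with the block). By cluster, 6 of 6 tested HOXD genes and 5 of 9 HOXA, 5 of 7 HOXB and 5 of 6 HOXC genes were higher with the block, none of them tested as a set. In the names table, the gene models of HOXA4 and HOXA3 overlap, and that of HOXC4 overlaps those of HOXC5, HOXC6 and HOXC10, and how shared reads were assigned is not given in the sources used here.

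**Figure D2:**
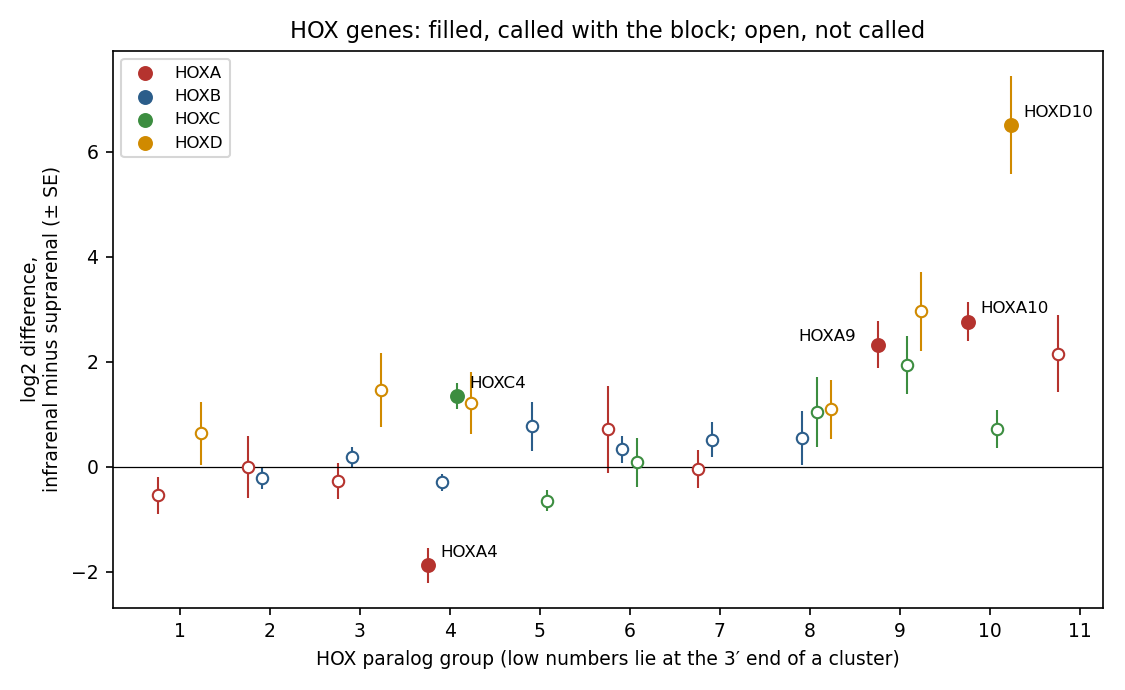
Log2 difference of the 28 tested HOX genes, infrarenal minus suprarenal, from the fit with the block (y axis, ± SE), by paralog group (x axis) and cluster (colour), with called genes filled and the rest open. Groups 8 to 11 lie above 0, with HOXD10 at 6.51, while groups 1 to 5 lie on both sides and HOXA4 stands lowest at -1.88.

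NOTCH3 (GeneID 102120202), a Notch receptor made by mural cells of arteries, was higher below the renal arteries in every library, at 494, 429, 402 and 505 CPM in infrarenal replicates 1 to 4, against 256, 248, 177 and 182 CPM in suprarenal replicates 1 to 4. The lowest infrarenal value lay above the highest suprarenal value. Means were 458 ± 49.6 CPM in infrarenal and 216 ± 41.7 CPM in suprarenal libraries (SD, n = 4 each). The log2 difference of 1.09 (SE 0.26) did not pass without the block (adjusted p = 0.131), and passed with it (1.09, SE 0.19, adjusted p = 0.0287). With the block the call ended without infrarenal replicates 2, 3 and 4 and suprarenal replicates 1 and 4 (adjusted p up to 0.136). Without infrarenal replicate 1 and suprarenal replicate 3 together the difference was 1.22 and the adjusted p 0.0242 with the block. Scaled by library totals alone, NOTCH3 did not pass with the block (1.02, SE 0.23, adjusted p = 0.085).

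JAG1, a Notch ligand of endothelial and smooth muscle cells, followed the same pattern at 274, 272, 339 and 298 CPM in the infrarenal libraries, against 159, 152, 181 and 113 CPM in the suprarenal libraries. The groups did not overlap, and the difference was 0.99, SE 0.19, adjusted p = 0.0455 with the block and 0.97, SE 0.21, adjusted p = 0.0872 without it. The call ended without infrarenal replicates 2, 3 and 4 and suprarenal replicates 1, 2, 3 and 4 (adjusted p up to 0.233). HES4, a HES-family repressor, had 215, 84.6, 72.5 and 58.9 CPM in the infrarenal libraries, against 26.5, 43.05, 53.4 and 9.74 CPM in the suprarenal libraries. Its highest value came from infrarenal replicate 1, its groups did not overlap, and it did not pass in either fit of edgeR (log2 difference 1.68, SE 0.43, adjusted p = 0.157 with the block), while DESeq2 called it. Among 38 tested Notch pathway genes, 15 were higher and 23 lower without the block, edgeR called NOTCH3 and JAG1 with the block and none without it, DESeq2 without a block called HES4, JAG1 and NOTCH3, and the median was -0.04. The median turned to 0.03 without infrarenal replicate 1 and to 0.14 without suprarenal replicate 3. The coactivator MAML2 was lower in 4 of 4 pairs without passing (-0.44, SE 0.18, adjusted p = 0.623 with the block). Among 19 tested pericyte and mural markers, edgeR called NOTCH3 with the block, DESeq2 called ANGPT2, NOTCH3 and PDGFRB, and voom with the block called ANGPT2 and NOTCH3.

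Genes of the elastic fibre were mostly lower in infrarenal aorta, and none of the 30 tested passed in either fit of edgeR. At an unadjusted p under 0.05, 8 were lower in each fit, and DESeq2 called 1, ADAMTSL4. In all, 26 of 30 were lower without the block and 24 with it, with a median log2 difference of -0.30 and -0.25, and the median was -0.48 without infrarenal replicate 1 and suprarenal replicate 3 together. ELN (GeneID 102118050), which encodes tropoelastin, was at 33.4, 246, 221 and 135 CPM in infrarenal replicates 1 to 4, against 297, 388, 168 and 189 CPM in suprarenal replicates 1 to 4. The groups overlapped, replicate 3 was higher in infrarenal aorta, and the difference was -0.71, SE 0.54, adjusted p = 0.947 without and -0.84, SE 0.44, adjusted p = 0.793 with the block. Infrarenal replicate 1 held the lowest value by far, and without it the difference was -0.39 without and -0.41 with the block. FBN1 (GeneID 102127300), the main protein of microfibrils, was at 265, 436, 351 and 459 CPM in the infrarenal libraries, against 643, 446, 462 and 701 CPM in the suprarenal libraries. It was lower in all 4 pairs, by almost nothing for number 2, and did not pass (-0.58, SE 0.22, adjusted p = 0.733 without and -0.57, SE 0.24, adjusted p = 0.628 with the block). EMILIN2, an elastin-associated glycoprotein, did not overlap between the groups, at 68.9, 74.8, 86.6 and 70.7 CPM in the infrarenal libraries, against 125, 103, 120.2 and 129 CPM in the suprarenal libraries, and also missed the threshold (-0.68, SE 0.16, adjusted p = 0.115 with the block). The microfibril genes MFAP2, ADAMTSL4 and FBN2 were each lower in 4 of 4 pairs, with log2 differences of -0.80, -0.51 and -1.29, with adjusted p of 0.184, 0.19 and 0.241 with the block.

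**Figure D3:**
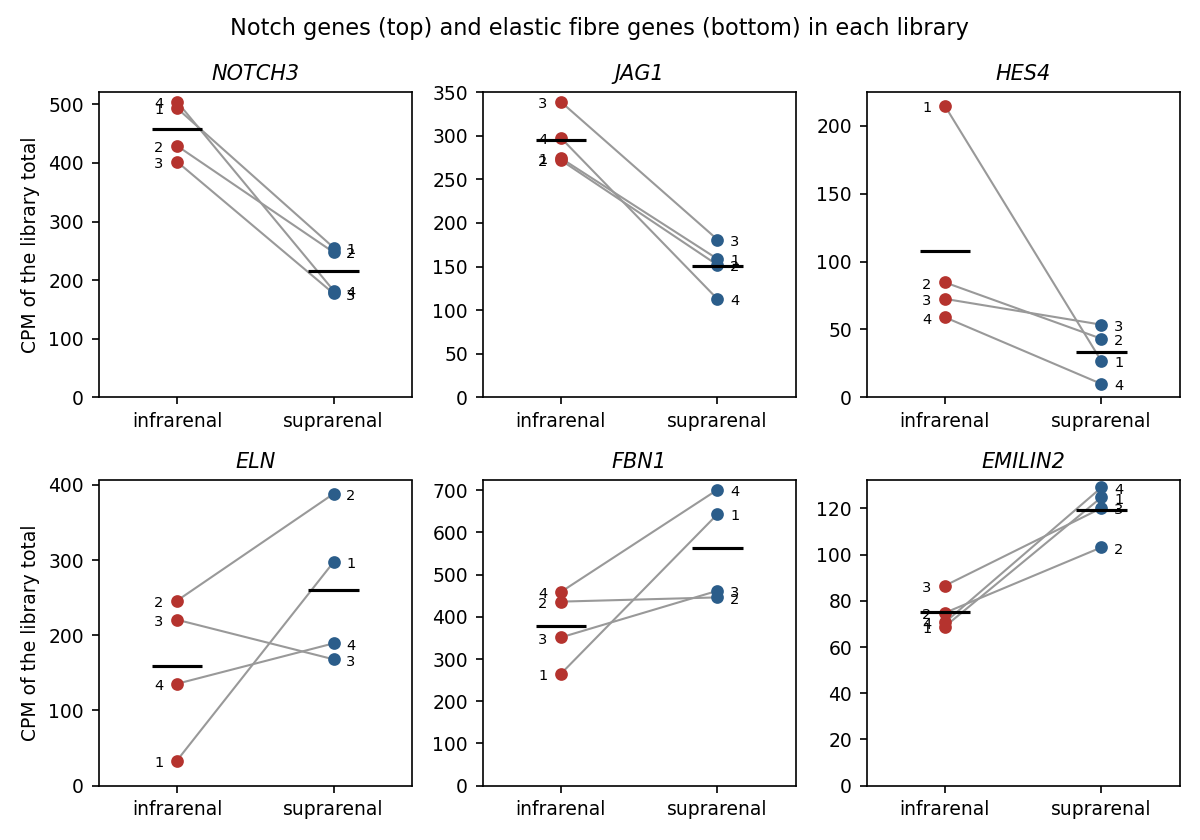
CPM (y axis, from 0) of NOTCH3, JAG1 and HES4 (top) and ELN, FBN1 and EMILIN2 (bottom) in each infrarenal library (left) and suprarenal library (right), with lines joining libraries of equal number and bars at the means. The 4 NOTCH3 and JAG1 lines run down from left to right, while 1 of the 4 ELN lines runs down and 3 run up. The library total on the y axis is the total times its TMM factor.

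Beyond the HOX and Notch genes, 11 named genes rose in one or both fits. PCP4, a small regulator of calmodulin, was nearly confined to the infrarenal side of this pair, at 11.4, 4.88, 2.82 and 5.09 CPM in infrarenal replicates 1 to 4, against 0, 0.0957, 0 and 0.0591 CPM in suprarenal replicates 1 to 4. These are 362 counts against 3. Scaled by the summed library totals times TMM factors, the ratio of these counts was 135. Its 95% interval of 45.7 to 656 covers counting error only. PCP4 passed in both fits (adjusted p = 0.0139 without and 0.00941 with the block). PTP4A1, a protein tyrosine phosphatase of the PRL family, was at 122, 103, 89.3 and 87.4 CPM in the infrarenal libraries, against 58.2, 59.5, 33.6 and 58.05 CPM in the suprarenal libraries. Its values did not overlap, and it rose by 0.94 (SE 0.17, adjusted p = 0.0423) without the block. The call without the block was lost in 13 of 16 fits that left out 1 library, with adjusted p up to 0.141. KCNT2, a sodium-activated potassium channel, was at 11.95, 51.6, 20.1 and 30.7 CPM in the infrarenal libraries, against 0.371, 10.3, 4.63 and 1.299 CPM in the suprarenal libraries. It rose by 3.09 (SE 0.56, adjusted p = 0.031) with the block and did not pass without it (0.218). CTNNA3, an alpha-catenin of cell junctions that is well known from heart muscle, was at 34.6, 29.6, 49.9 and 39.2 CPM in the infrarenal libraries, against 3.28, 4.74, 13.2 and 0.886 CPM in the suprarenal libraries. The groups did not overlap, and CTNNA3 passed with the block (adjusted p = 0.0442) but not without (0.0618). RGS2, which shortens signalling from receptors coupled to Gq and so opposes vasoconstrictors, was at 88.5, 85.6, 70.05 and 30.4 CPM in the infrarenal libraries, against 12.7, 30.1, 13.8 and 11.3 CPM in the suprarenal libraries. Its difference was 2.06, SE 0.39, adjusted p = 0.0389 with the block and 2.01, SE 0.41, adjusted p = 0.0618 without it.

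The other 6 passed with the block only. PPP1R3C, a subunit that directs protein phosphatase 1 to glycogen, rose by 1.17 (SE 0.15, adjusted p = 0.00941), with 48.2 to 125 CPM in infrarenal and 23.9 to 50.5 CPM in suprarenal libraries. Its ranges overlapped although each of the 4 pairs was higher, and it did not pass without the block (adjusted p = 0.232). PARM1, a mucin-like membrane protein, showed the same with 261 to 507 CPM in infrarenal and 94.9 to 327 CPM in suprarenal libraries and a difference of 1.18, SE 0.19, adjusted p = 0.0202. Likewise TRABD2B, a membrane protease that inactivates WNT ligands, and SCAMP5, a membrane protein of secretory vesicles, overlapped between the groups and passed with the block only, by 1.31 and 1.26 (adjusted p = 0.0421 and 0.0413). TENM3, a teneurin adhesion protein, was at 38.5 to 57.7 CPM in infrarenal and 14.5 to 33.5 CPM in suprarenal libraries and rose by 1.12 (adjusted p = 0.0421). LGALSL, a galectin-related protein, was at 69.1, 59.8, 61.99 and 76.2 CPM in the infrarenal libraries, against 41.2, 43.8, 35.03 and 43.6 CPM in the suprarenal libraries, and it rose by 0.70 (SE 0.12, adjusted p = 0.0287). Of these, the calls of TRABD2B, SCAMP5, TENM3 and LGALSL ended in 6 or 7 of the 8 fits with the block that left out 1 of the 8 libraries, with adjusted p of up to 0.14 to 0.222.

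Of the genes that fell, 7 of 29 without the block and 9 of 63 with it are in the list of neuronal and synaptic genes, which was not tested for enrichment. The list holds 88 genes, several of them known from earlier results on these libraries, and supplies 67 of the 15926 tested genes. Without the block 7 fell and 0 rose, and with it 9 fell and 2 rose, CTNNA3 and TENM3. Its median log2 difference was -0.22 without and -0.29 with the block and 0.01 without infrarenal replicate 1 (no block). All infrarenal libraries lay below all suprarenal ones for 12 of the 67, where the same held for 1.56% of all tested genes. As several members were known from these libraries, their share in the list is partly built in and is no independent support. The 7 that fell without the block were RBFOX1, NPTX2, CRMP1, SHISA9, TMEM151B, NLGN4X and SUSD4.

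RBFOX1, a regulator of splicing in neurons and muscle, was all but missing below the renal arteries, at 0, 0, 0.197 and 0.1698 CPM in infrarenal replicates 1 to 4, against 18.2, 1.39, 9.200 and 4.31 CPM in suprarenal replicates 1 to 4. Its 6 infrarenal counts stood against 541 suprarenal counts, and the fitted log2 difference was -6.32, SE 0.96, adjusted p = 0.0143 without the block. The call without the block ended when infrarenal replicate 2 or 4 was left out (adjusted p up to 0.0918). NPTX2, a secreted pentraxin of excitatory synapses, was at 15.8, 1.32, 0.393 and 8.26 CPM in infrarenal replicates 1 to 4, against 371, 103, 30.8 and 248 CPM in suprarenal replicates 1 to 4. The suprarenal libraries spread widely, and in both regions the order from high to low was number 1, 4, 2 and 3. Its adjusted p was 0.00941 with the block and 0.04997 without it. NPTX2 was also the 1 gene called when the block fit used the 8 libraries alone (adjusted p = 0.0311). CRMP1, a phosphoprotein of axon growth, was at 0.617, 0.782, 3.801 and 0.849 CPM in the infrarenal libraries, against 11.5, 14.9, 11.04 and 23.9 CPM in the suprarenal libraries. Infrarenal replicate 3 was the highest of its group and still lay below every suprarenal library, and the difference was -3.34, SE 0.61, adjusted p = 0.0423 without the block. SHISA9, an auxiliary protein of AMPA receptors, was at 1.23, 0.301, 0.983 and 0.113 CPM in the infrarenal libraries, against 19.2, 6.12, 3.68 and 9.803 CPM in the suprarenal libraries, with -3.91, SE 0.75, adjusted p = 0.0496 without the block.

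The other members fell in both fits or with the block alone. TMEM151B, a membrane protein of little known function, was at 0.262 to 0.903 CPM in infrarenal and 3.55 to 11.1 CPM in suprarenal libraries and fell by 3.40 (SE 0.50, adjusted p = 0.0143 without the block). SUSD4, a complement regulator found in brain, was at 4.94, 1.505, 4.26 and 3.96 CPM in the infrarenal libraries, against 71.9, 13.2, 12.2 and 35.3 CPM in the suprarenal libraries and fell in both fits (adjusted p = 0.0423 without the block). NLGN4X, a postsynaptic adhesion protein, held a narrow range in each region, 2.82 to 3.904 CPM in infrarenal and 6.79 to 9.59 CPM in suprarenal libraries, and differed by -1.33, SE 0.21, adjusted p = 0.0193 without the block. CTNND2, a catenin of neuronal junctions, held 7 infrarenal counts against 255 suprarenal counts and fell with the block only (adjusted p = 0.0232). Outside the list, ERC2, a scaffold of the presynaptic active zone, had 3 infrarenal against 134 suprarenal counts. Scaled by the summed library totals times TMM factors, these counts were 40.02 times lower in infrarenal than in suprarenal aorta (95% interval 13.4 to 197, counting error only). ERC2 fell in both fits (adjusted p = 0.0197 and 0.0301). POU3F2, a transcription factor of neural cells, had 4 against 226 counts and fell in both fits (adjusted p = 0.0143 and 0.0153). CAMK2B, a calcium and calmodulin-dependent kinase, was at 8.48, 3.19, 4.13 and 4.02 CPM in the infrarenal libraries, against 22.7, 16.3, 12.9 and 29.1 CPM in the suprarenal libraries, and the difference was -2.03, SE 0.35, adjusted p = 0.0309 without the block. PLXNB3, a semaphorin receptor, was at 1.31 to 2.23 CPM in infrarenal and 5.55 to 9.402 CPM in suprarenal libraries, with -2.16, SE 0.35, adjusted p = 0.0197.

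Markers of Schwann cells and nerve gave a mixed picture. Of 18 tested Schwann cell and nerve markers, 4 were higher and 14 lower without the block, and 2 fell with it, NCMAP among them, while the summed level of the list was 556, 625, 665 and 607 CPM in infrarenal replicates 1 to 4 and 625, 929.7, 748 and 751 CPM in suprarenal replicates 1 to 4. The list's median was -0.64 with all libraries, -0.06 without suprarenal replicate 3 and -1.30 without infrarenal replicate 3. NCMAP, a protein of noncompact myelin, was at 0.617, 4.27, 0.983 and 2.09 CPM in the infrarenal libraries, against 4.14, 10.7, 2.86 and 9.803 CPM in the suprarenal libraries, lower in 4 of 4 pairs, with -1.97, SE 0.33, adjusted p = 0.026 with the block and an adjusted p of 0.818 without it. CDH19, a cadherin of Schwann cells, was lower in 4 of 4 pairs without passing (-1.60, SE 0.61, adjusted p = 0.513). UCHL1, a ubiquitin hydrolase of neurons, was higher in infrarenal aorta without passing (0.71, SE 0.21, adjusted p = 0.265 with the block). The part of nerve content in the neuronal genes was not tested.

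Some single genes known from striated muscle fell, while 1 gene of the skeletal muscle list and none of the cardiac list did. MYOZ2, a calcineurin-binding protein of the Z-disc, was at 11.7, 10.1, 21.1 and 17.2 CPM in infrarenal replicates 1 to 4, against 55.6, 72.4, 55.3 and 61.00 CPM in suprarenal replicates 1 to 4. No infrarenal value reached the suprarenal range, and the difference was -2.02, SE 0.38, adjusted p = 0.0467 without and -2.09, SE 0.30, adjusted p = 0.0153 with the block. HSPB7, a small heat shock protein of heart and skeletal muscle, was at 82.2, 65.7, 77.8 and 71.4 CPM in the infrarenal libraries, against 186, 254, 131 and 254 CPM in the suprarenal libraries and fell by 1.47 (SE 0.27, adjusted p = 0.0466) without the block. ACTN2, the alpha-actinin of the Z-disc, was at 50.8, 167, 56.1 and 132 CPM in the infrarenal libraries, against 140.3, 347, 108 and 199 CPM in the suprarenal libraries. Its ranges overlapped, each pair was lower, and it fell with the block only (-1.01, SE 0.20, adjusted p = 0.0454, against adjusted p = 0.865 without it). Of the 15 tested skeletal muscle markers, 8 were higher and 7 lower and edgeR called 1, ACTN2, with the block (DESeq2 called MYOZ1), and of 8 tested cardiac muscle markers none passed in either fit of edgeR or with DESeq2 (1 and 0 at an unadjusted p under 0.05 without and with the block). DES, the intermediate filament protein of muscle, was higher in 3 of 4 pairs and did not pass, at 767, 747, 624 and 533 CPM in the infrarenal libraries, against 202, 764, 427 and 112 CPM in the suprarenal libraries.

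The smooth muscle contractile list itself held to no direction. Of its 42 tested genes, 26 were higher and 16 lower without the block, PCP4 was the 1 called, and the median log2 difference was 0.11. The median became -0.02 without infrarenal replicate 1 and -0.13 without that library and suprarenal replicate 3 together. The list summed to 174663, 89399.5, 69112 and 75056 CPM in infrarenal replicates 1 to 4 and 87273, 95143, 45121 and 79598 CPM in suprarenal replicates 1 to 4. Infrarenal replicate 1 was the highest and suprarenal replicate 3 the lowest of the 8. ITGA7, the laminin-binding integrin of muscle, was at 239.7 to 353 CPM in infrarenal and 152 to 271 CPM in suprarenal libraries without passing (adjusted p = 0.385 with the block), and MCAM, an adhesion protein of mural cells, was higher in 4 of 4 pairs without passing (0.79, SE 0.24, adjusted p = 0.277).

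Single matrix genes fell, among them COL4A3, COL21A1, SULF2 and NTN4. COL4A3, the alpha-3 chain of type IV collagen, was at 10.6, 9.93, 8.58 and 14.4 CPM in infrarenal replicates 1 to 4, against 52.9, 24.4, 27.2 and 71.3 CPM in suprarenal replicates 1 to 4. It fell in both fits, by 2.01 (SE 0.31, adjusted p = 0.0143) without the block, and was the 1 gene called among 27 basement membrane genes (10 higher, 17 lower, median -0.24). That median was -0.083 without infrarenal replicate 1, -0.11 without suprarenal replicate 3, and 0.016 with the block without both (14 higher, 13 lower). COL4A4, its partner chain, whose gene model overlaps that of COL4A3, was at 10.4, 17.03, 7.54 and 20.2 CPM in the infrarenal libraries, against 65.3, 25.4, 11.99 and 57.7 CPM in the suprarenal libraries. It was lower in 4 of 4 pairs and did not pass (-1.39, SE 0.31, adjusted p = 0.0894 with the block). COL21A1, a collagen attached to fibril surfaces, was at 17.6, 18.1, 26.5 and 6.903 CPM in the infrarenal libraries, against 61.6, 33.00, 70.8 and 42.6 CPM in the suprarenal libraries. It fell with the block only (-1.64, SE 0.24, adjusted p = 0.0168). It was the 1 called by edgeR among 19 tested genes of a list of fibrillar and other collagens. COL8A1, a short-chain collagen of the vessel wall, went the opposite way without passing with edgeR, while DESeq2 called it. It stood at 707, 719.9, 488 and 498 CPM in the infrarenal libraries, against 97.2, 248, 122 and 50.4 CPM in the suprarenal libraries, with no overlap, and the difference was 2.22, SE 0.45, adjusted p = 0.0618 without and 2.30, SE 0.48, adjusted p = 0.07 with the block. SULF2, which trims sulphate from heparan sulphate, was at 28.7, 28.6, 33.5 and 65.5 CPM in the infrarenal libraries, against 74.8, 119, 66.9 and 139 CPM in the suprarenal libraries and fell with the block only (-1.36, SE 0.20, adjusted p = 0.0168). NDST3, which adds sulphate to heparan sulphate, was at 3.67 to 6.200 CPM in infrarenal and 10.2 to 20.4 CPM in suprarenal libraries and fell in both fits (adjusted p = 0.0467 and 0.0143). NTN4, a netrin that binds laminin in basement membranes, was among the more abundant of the genes that fell, at 79.1, 128, 153 and 130.1 CPM in the infrarenal libraries, against 399, 262, 243 and 349.7 CPM in the suprarenal libraries. Its values did not overlap, and the difference was -1.35, SE 0.20, adjusted p = 0.0143 without the block. MXRA5, a matrix protein, was at 32.2, 44.5, 46.7 and 28.3 CPM in the infrarenal libraries, against 167, 95.8, 51.97 and 95.7 CPM in the suprarenal libraries and fell with the block only (adjusted p = 0.0417). LRRC17, a secreted leucine-rich repeat protein, fell in both fits, with log2 differences of -1.14 and -1.11 (adjusted p = 0.0494 and 0.031). Of 29 proteoglycan genes SULF2 was the 1 called, and of 43 extracellular protease and inhibitor genes none passed in either fit of edgeR (7 and 9 at an unadjusted p under 0.05 without and with the block) and 1, PLAT, with DESeq2. PLAT, the tissue plasminogen activator, did not overlap between the regions at 31.6, 23.2, 36.6 and 40.9 CPM in the infrarenal libraries, against 87.3, 55.8, 81.03 and 53.1 CPM in the suprarenal libraries, and it did not pass (-1.07, SE 0.27, adjusted p = 0.148 with the block). PLAU, the urokinase activator, was lower in 4 of 4 pairs without passing (adjusted p = 0.186).

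**Figure D4:**
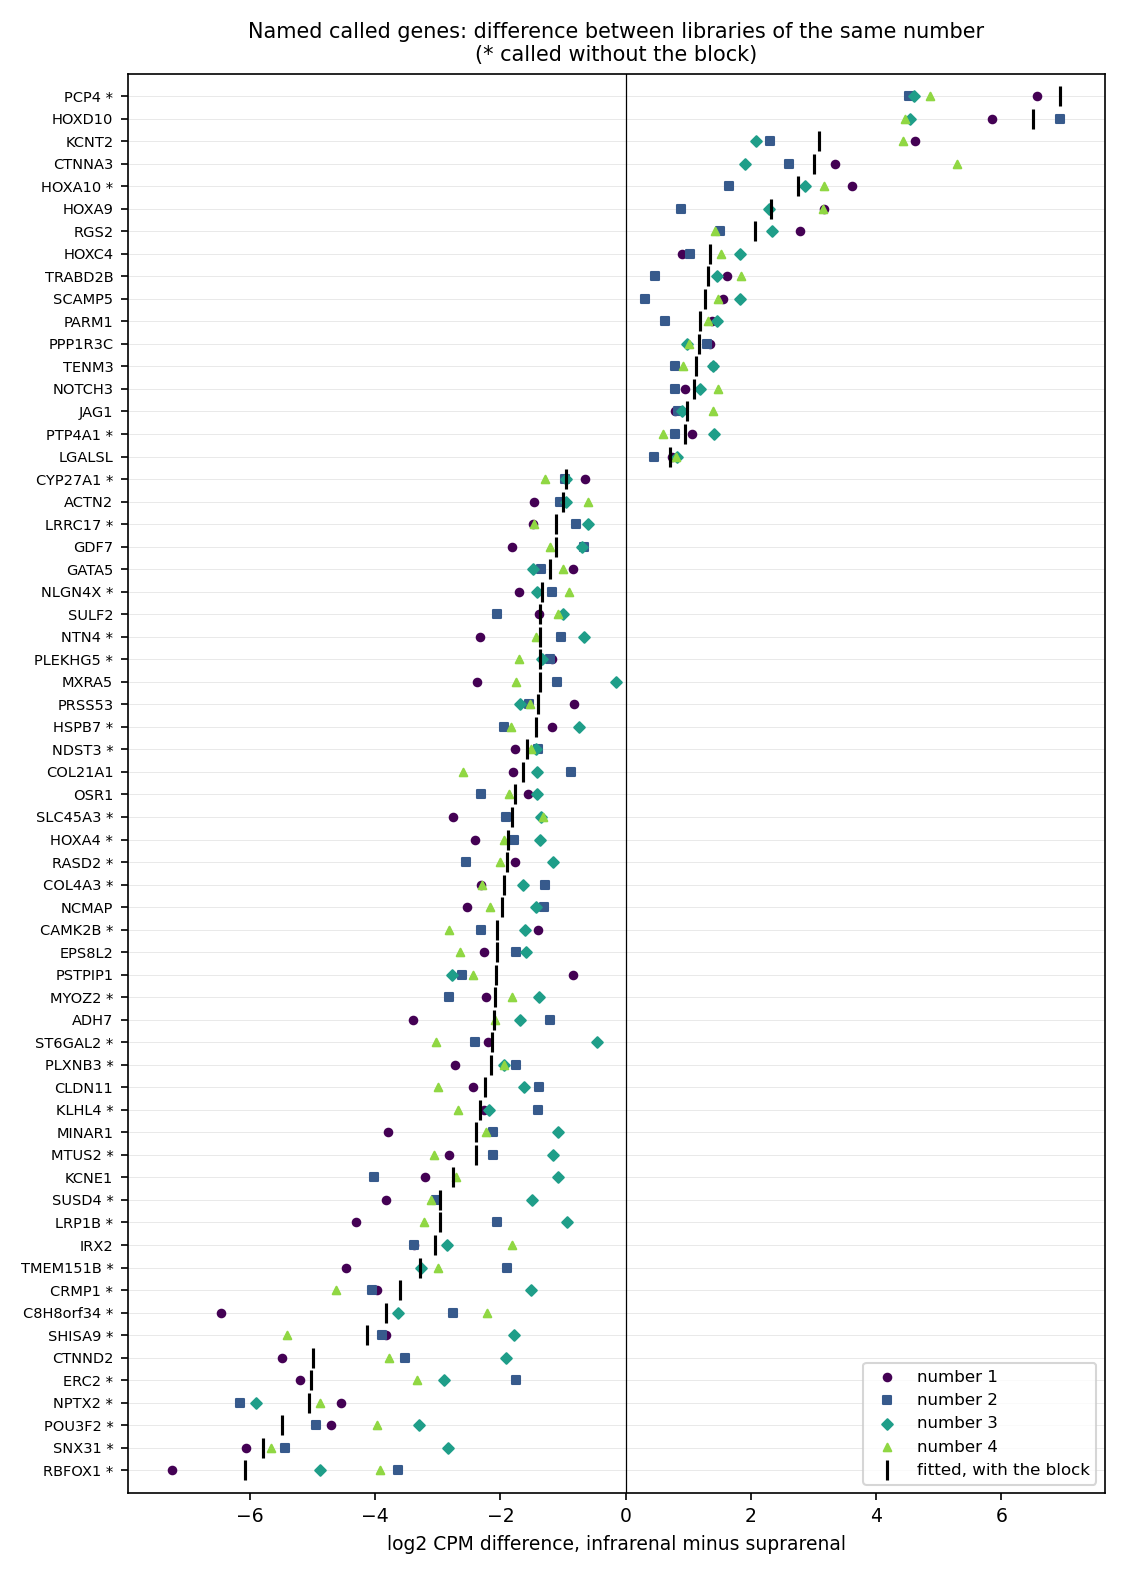
Difference in log2 CPM between the infrarenal and suprarenal library of each number (4 marks a row) and the log2 difference fitted with the block (black tick) for 62 named genes called in either fit, ordered from the highest to the lowest. The 17 genes at the top lie above 0 and the 45 below them lie under 0 in all 4 pairs, and an asterisk marks genes called without the block.

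Transcription factors other than HOX genes that fell included OSR1, IRX2 and GATA5. OSR1, a zinc finger factor of kidney and heart mesoderm, was at 247, 77.9, 93.4 and 139 CPM in infrarenal replicates 1 to 4, against 724, 387, 249 and 504 CPM in suprarenal replicates 1 to 4. Each infrarenal value lay below each suprarenal value, and OSR1 fell with the block (-1.76, SE 0.31, adjusted p = 0.0293) and missed the threshold without it (adjusted p = 0.103). IRX2, an Iroquois homeobox factor, had 41 infrarenal against 360 suprarenal counts and fell with the block only (adjusted p = 0.0144, against 0.0618). GATA5, a GATA factor of the developing heart, was at 4.32, 3.97, 8.19 and 5.88 CPM in the infrarenal libraries, against 7.86, 10.4, 23.03 and 11.9 CPM in the suprarenal libraries and fell with the block only (-1.20, SE 0.21, adjusted p = 0.0301). TBX20, a T-box factor of the heart, had 7 against 60 counts and did not pass (adjusted p = 0.0516 with the block). DESeq2 called TBX20, MEIS2 and 2 others of the list, IRX2 and SOX9. MEIS2, a cofactor of HOX proteins, was at 43.8, 42.6, 36.4 and 35.7 CPM in the infrarenal libraries, against 109, 56.3, 51.4 and 84.7 CPM in the suprarenal libraries. Its groups did not overlap and it did not pass (-0.89, SE 0.18, adjusted p = 0.0645 with the block). Of 57 tested cardiac and regional factors, 26 were higher and 31 lower without the block, none was called without it by edgeR, and IRX2 and GATA5 were the 2 called with it.

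Secreted signals showed single calls. GDF7, a ligand of the BMP family, was at 27.3, 44.4, 82.6 and 44.8 CPM in the infrarenal libraries, against 96.9, 70.1, 134 and 103 CPM in the suprarenal libraries, lower in 4 of 4 pairs, and fell with the block only (-1.12, SE 0.19, adjusted p = 0.026, against adjusted p = 0.596 without it). It was the 1 called by edgeR of 57 TGF-beta and BMP genes (24 higher, 33 lower), and DESeq2 did not call it. BMP3 was lower and the BMP antagonist GREM1 higher in infrarenal aorta with no overlap, and neither passed with edgeR, while DESeq2 called BMP3. BMP3 was at 0.771 to 2.56 CPM in infrarenal and 4.49 to 14.7 CPM in suprarenal libraries (-2.38, SE 0.51, adjusted p = 0.0761 with the block), and GREM1 at 22.8, 71.99, 41.02 and 21.5 CPM in the infrarenal libraries, against 2.35, 4.74, 9.39 and 10.98 CPM in the suprarenal libraries (2.90, SE 0.65, adjusted p = 0.0894). BAMBI, a decoy receptor of the family, was at 16.4 to 32.4 CPM in infrarenal and 37.6 to 72.8 CPM in suprarenal libraries (adjusted p = 0.14). None of 51 WNT pathway genes passed in either fit of edgeR (6 and 8 at an unadjusted p under 0.05 without and with the block), and DESeq2 called RSPO2 and SFRP1. RSPO2, an enhancer of WNT signalling, had 26 against 316 counts (-3.61, SE 0.78, adjusted p = 0.0787 with the block), and SFRP1, a WNT antagonist, was at 72.4, 88.3, 106 and 101 CPM in the infrarenal libraries, against 221, 170.2, 118 and 297 CPM in the suprarenal libraries (-1.07, SE 0.27, adjusted p = 0.157). ANGPT2, a modulator of the TIE2 receptor, was at 45.8, 118, 70.8 and 99.2 CPM in the infrarenal libraries, against 3.46, 17.1, 29.9 and 8.56 CPM in the suprarenal libraries, with no overlap. It did not pass in either fit of edgeR (2.50, SE 0.59, adjusted p = 0.131 without the block), while DESeq2, and limma voom with and without the block, called it.

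Among 61 tested ion channels of muscle, KCNT2 was the 1 called, and 30 were higher and 31 lower. Other potassium channel genes differed without overlap and did not pass with edgeR, while DESeq2 called KCNA5 and KCNAB1 among them. KCNA5, a delayed rectifier, was at 89.3, 57.2, 64.1 and 115 CPM in the infrarenal libraries, against 26.2, 36.1, 26.02 and 18.1 CPM in the suprarenal libraries (1.56, SE 0.34, adjusted p = 0.0777 with the block), and KCNAB1, a beta subunit, at 50.9, 106, 54.3 and 33.04 CPM in the infrarenal libraries, against 1.92, 24.9, 13.2 and 5.08 CPM in the suprarenal libraries (2.55, SE 0.56, adjusted p = 0.0818). KCNE1, a beta subunit of slow potassium channels, is outside that list. It was at 4.24, 0.662, 3.74 and 5.998 CPM in the infrarenal libraries, against 39.96, 12.6, 8.06 and 39.7 CPM in the suprarenal libraries and fell with the block (-2.76, SE 0.49, adjusted p = 0.0303), and it did not pass without it (adjusted p = 0.0618). None of 57 vasoactive receptor and renin-angiotensin genes passed in either fit of edgeR (6 and 8 at an unadjusted p under 0.05 without and with the block), and DESeq2 called CHRM2. P2RX1, the ATP-gated channel through which sympathetic nerves contract smooth muscle, spread widely, at 230.2, 246, 164 and 121 CPM in the infrarenal libraries, against 9.46, 111, 20.3 and 1.48 CPM in the suprarenal libraries (3.05, SE 0.85, adjusted p = 0.208 with the block). Its suprarenal values ran from 1.48 CPM in replicate 4 to 111 CPM in replicate 2, and the groups still did not overlap. ADRA2C, an alpha-2 adrenergic receptor, was at 1013, 336, 372 and 258 CPM in the infrarenal libraries, against 144, 232, 187 and 135 CPM in the suprarenal libraries without passing (adjusted p = 0.321), with its highest value in infrarenal replicate 1. The muscarinic receptor CHRM2 was lower without overlap at 0.386 to 3.67 CPM in infrarenal and 4.37 to 16.5 CPM in suprarenal libraries (-2.28, SE 0.51, adjusted p = 0.0894), and AGTR1, the angiotensin II receptor, was lower in 4 of 4 pairs at 10.4 to 27.6 CPM in infrarenal and 16.8 to 45.01 CPM in suprarenal libraries (-0.85, SE 0.20, adjusted p = 0.115).

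The remaining genes that fell have no common list. MTUS2, a microtubule-associated protein, was at 11.6, 13.5, 13.96 and 8.77 CPM in infrarenal replicates 1 to 4, against 83.1, 58.9, 31.5 and 74.3 CPM in suprarenal replicates 1 to 4, and it fell by 2.37 (SE 0.31, adjusted p = 0.0139) without the block. KLHL4, a kelch-like protein, was scarce at 0.694, 0.903, 0.5898 and 0.396 CPM in the infrarenal libraries, against 3.77, 2.58, 3.11 and 3.19 CPM in the suprarenal libraries and fell by 2.28 (SE 0.33, adjusted p = 0.0143). SNX31, a sorting nexin, had 12 infrarenal against 825 suprarenal counts, at 0.309, 0, 0.393 and 0.113 CPM in the infrarenal libraries, against 28.6, 5.12, 3.55 and 11.8 CPM in the suprarenal libraries, and fell in both fits (adjusted p = 0.0173 and 0.00941). ST6GAL2, a sialyltransferase, was at 54.8, 23.2, 49.3 and 28.2 CPM in the infrarenal libraries, against 252, 124, 68.1 and 232 CPM in the suprarenal libraries, with -2.12, SE 0.41, adjusted p = 0.0494 without the block. PLEKHG5, an exchange factor for RhoA, was at 31.2, 19.6, 26.5 and 22.8 CPM in the infrarenal libraries, against 70.6, 45.4, 66.9 and 74.9 CPM in the suprarenal libraries, with -1.37, SE 0.20, adjusted p = 0.0143. CYP27A1, the sterol 27-hydroxylase, had the smallest change of the 29 genes that fell without the block, at 59.3, 40.03, 48.1 and 34.97 CPM in the infrarenal libraries, against 93.03, 78.7, 93.6 and 85.5 CPM in the suprarenal libraries (-0.94, SE 0.17, adjusted p = 0.0423). RASD2, a small Ras-like GTPase, SLC45A3, a solute carrier, and C8H8orf34 fell in both fits, with log2 differences of -1.95, -1.84 and -3.92 without the block (adjusted p = 0.0423, 0.0467 and 0.0293). LRP1B, a large receptor of the LDL receptor family, was at 3.702, 6.44, 3.47 and 6.73 CPM in the infrarenal libraries, against 75.5, 27.1, 6.73 and 64.01 CPM in the suprarenal libraries. Suprarenal replicate 3 lay at the level of the highest infrarenal libraries, and LRP1B passed without the block (-3.08, SE 0.58, adjusted p = 0.0467) but not with it (adjusted p = 0.0729). CLDN11, a claudin of tight junctions, PSTPIP1, an adaptor of the actin cytoskeleton, EPS8L2, a regulator of actin, and ADH7, an alcohol dehydrogenase, fell with the block only, with log2 differences of -2.25, -2.07, -2.05 and -2.11 (adjusted p = 0.0358, 0.0301, 0.0389 and 0.0408). MINAR1, a membrane protein reported to bind NOTCH2, was at 1.77, 2.53, 3.41 and 14.5 CPM in the infrarenal libraries, against 26.1, 11.4, 7.36 and 68.3 CPM in the suprarenal libraries, where number 4 was the highest in both regions, and fell with the block only (-2.39, SE 0.42, adjusted p = 0.0301, against adjusted p = 0.496 without it). PRSS53, a serine protease, was at 38.3, 17.1, 20.3 and 19.6 CPM in the infrarenal libraries, against 67.7, 50.4, 66.1 and 56.9 CPM in the suprarenal libraries and fell with the block (adjusted p = 0.0287).

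Values of the thoracic libraries, given here as a description only, were the following. PCP4 averaged 6.05 ± 3.72 CPM in infrarenal, 0.0387 ± 0.0471 CPM in suprarenal, 0.0416 ± 0.0831 CPM in descending and 0.0151 ± 0.0302 CPM in ascending aorta (SD, n = 4 each), with almost none in the 3 regions above the renal arteries. SNX31 averaged 0.204 ± 0.179 CPM in infrarenal, 12.3 ± 11.5 CPM in suprarenal, 9.49 ± 6.49 CPM in descending and 0.0761 ± 0.0758 CPM in ascending aorta, low at both ends of the vessel. POU3F2 averaged 0.0588 ± 0.0801 CPM in infrarenal, 3.19 ± 1.14 CPM in suprarenal, 1.15 ± 1.03 CPM in descending and 0.246 ± 0.0538 CPM in ascending aorta, with its highest mean in the suprarenal libraries. NPTX2 averaged 6.45 ± 7.16 CPM in infrarenal, 188 ± 152 CPM in suprarenal, 206 ± 78.7 CPM in descending and 108 ± 61.3 CPM in ascending aorta, and ST6GAL2 38.9 ± 15.5 CPM in infrarenal, 169 ± 87.8 CPM in suprarenal, 180.3 ± 15.4 CPM in descending and 152 ± 55.7 CPM in ascending aorta. For both, the infrarenal mean was the lowest of the 4 regions.

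Markers of cells other than smooth muscle varied widely between libraries of one region. The 20 white adipocyte markers summed to 424, 698, 6114 and 1423 CPM in infrarenal replicates 1 to 4 and 1369, 402, 5276 and 1519 CPM in suprarenal replicates 1 to 4, so number 3 was highest in both regions. Endothelial markers, of which 29 were tested, summed to 1628, 1854, 4318 and 2509 CPM in infrarenal and 889, 1468, 5623 and 1153 CPM in suprarenal replicates 1 to 4. Again number 3 was highest in both, and the list's median log2 difference was -0.11 with all libraries and 1.17 without suprarenal replicate 3. For the white adipocyte list the median was -0.03 with all libraries, 0.78 without suprarenal replicate 3 and -1.48 without infrarenal replicate 3 (no block). ESAM, an endothelial adhesion protein, was at 362, 286, 329 and 319.6 CPM in the infrarenal libraries, against 60.5, 212, 261 and 81.6 CPM in the suprarenal libraries, and GJA5, a connexin of arterial endothelium, was at 60.5 to 95.7 CPM in infrarenal and 16.8 to 60.98 CPM in suprarenal libraries. Neither passed (adjusted p = 0.586 and 0.597 with the block), and no endothelial marker was called by edgeR or DESeq2 (2 at an unadjusted p under 0.05 in each edgeR fit). Pericyte and mural markers summed to 5904 to 7903 CPM in infrarenal and 2462 to 9048 CPM in suprarenal libraries, with suprarenal replicate 3 lowest. That library also held the lowest NOTCH3 value. When it was left out, the NOTCH3 difference was 1.11 (adjusted p = 0.0497) with the block and 1.01 (adjusted p = 0.237) without the block. The part of endothelial or mural cell content in the NOTCH3 and JAG1 differences was not tested.

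Macrophage and mast cell markers were mostly lower in infrarenal aorta, the direction of lymphocyte markers depended on 1 library, and none was called by edgeR or DESeq2. Of 24 macrophage markers 22 were lower without the block (median -0.58, and -0.22 without suprarenal replicate 3), with sums of 240.4 to 369 CPM in infrarenal and 207 to 607 CPM in suprarenal libraries. MSR1, a macrophage scavenger receptor, was at 0.771, 1.02, 1.18 and 0.622 CPM in the infrarenal libraries, against 9.53, 1.39, 2.22 and 2.01 CPM in the suprarenal libraries (adjusted p = 0.342 with the block). All 6 tested mast cell markers were lower, among them the protease CPA3 at 2.55, 2.29, 0.721 and 0.849 CPM in the infrarenal libraries, against 11.9, 6.07, 7.23 and 6.201 CPM in the suprarenal libraries (-2.60, SE 0.54, adjusted p = 0.0616 with the block), and none passed with edgeR or DESeq2 (1 and 2 at an unadjusted p under 0.05 without and with the block). Lymphocyte markers summed to 25.9 to 51.4 CPM in the infrarenal libraries, against 181 CPM in suprarenal replicate 3 and 20.4 to 31.6 CPM in the other suprarenal libraries. Of the 14 tested, 5 were higher and 9 lower (median -0.53), and without suprarenal replicate 3, 12 were higher and 2 lower (median 0.55). Fibroblast, brown adipocyte, mesothelial, adrenal and kidney markers gave no call with edgeR among 19, 12, 11, 2 and 4 tested (1, 3, 2, 0 and 1 at an unadjusted p under 0.05 without the block), and no red blood cell marker passed the filter on low counts. KRT8, a keratin of mesothelium, was lower without overlap at 2.95 to 9.64 CPM in infrarenal and 10.2 to 19.6 CPM in suprarenal libraries (adjusted p = 0.224), and FABP3, a fatty acid binding protein of muscle and brown fat, was higher at 35.6, 12.6, 12.8 and 17.3 CPM in the infrarenal libraries, against 2.103, 4.88, 5.77 and 2.54 CPM in the suprarenal libraries (adjusted p = 0.165, though called by DESeq2).

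Energy and ribosomal genes were shifted in 1 library. Of 55 oxidative phosphorylation genes 54 were higher in infrarenal aorta without the block (median 0.44), and of 67 ribosomal protein genes 66 were higher (median 0.48). None was called by edgeR or DESeq2, and 12 and 0 had an unadjusted p under 0.05 without the block. Without infrarenal replicate 1 the medians were 0.02 and -0.12, and 31 of 55 and 5 of 67 genes were higher. Of 39 immediate-early and stress genes 28 were lower and none passed with edgeR (3 at an unadjusted p under 0.05 without the block, and EGR3 called by DESeq2, median -0.18). DUSP1, an immediate-early phosphatase of MAP kinases, was at 1048, 326, 353 and 353 CPM in the infrarenal libraries, against 2118, 600.2, 815 and 559 CPM in the suprarenal libraries, where number 1 was highest in both regions (adjusted p = 0.147 with the block).

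**Figure D5:**
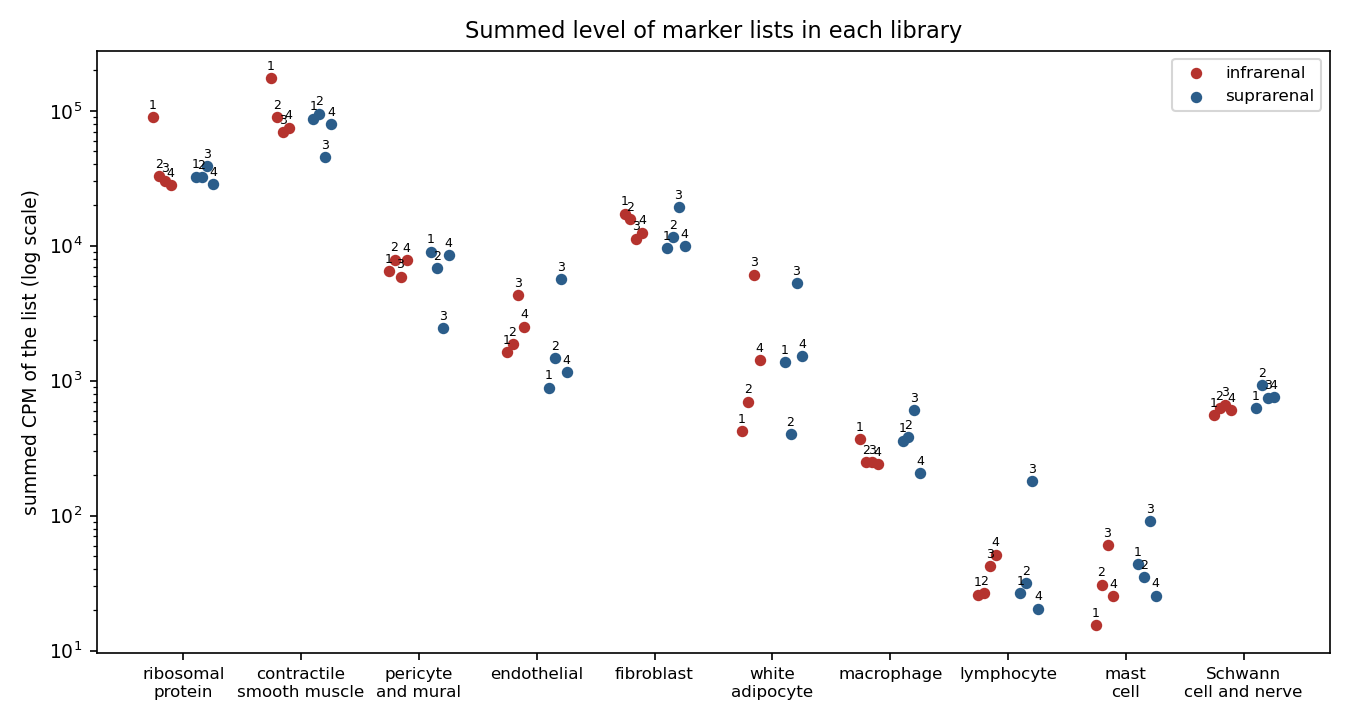
Summed CPM of 10 gene lists (y axis, log scale) in each library, infrarenal in red to the left and suprarenal in blue to the right, with the replicate number above each point. Infrarenal replicate 1 stands highest for the ribosomal and contractile lists, and number 3 stands highest in both regions for the endothelial and white adipocyte lists.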

How the data were processed

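Per the labels' protocols, RNA came from an RNeasy kit for fibrous tissue and libraries from a NEBNext Ultra kit. The authors deposited raw counts per gene, made with fastp, HISAT2 2.0.5 and featureCounts 1.5.0-p3 per the submitters' processing notes. No source used here names the genome build, the annotation or the use of strand. The deposited files held 32846 rows, of which 24609 (74.9%, with 97.2% of the counts) were named through NCBI's gene table for the T2T-MFA8v1.1 assembly, used for names and neighbours only.

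Genes were kept with filterByExpr (minimum count 10, minimum total 15), which left 15926. Counts were scaled with TMM factors and tested with edgeR 4.0.16 (quasi-likelihood F test, R 4.3.3) on all 16 libraries with a mean per region. Genes with a Benjamini-Hochberg adjusted p under 0.05 were called. CPM in the text is scaled to the library total times its TMM factor, and differences are infrarenal minus suprarenal. The fit with the block adds the replicate number. Deviations of libraries of equal number from their region means correlated at 0.23, 0.36, 0.45 and 0.44 across genes for numbers 1 to 4, each above 0.1, so the numbers were taken to pair the libraries. Libraries of unlike number correlated at -0.36 to 0.117. Of these, infrarenal 1 with suprarenal 2 (0.117) and infrarenal 2 with suprarenal 4 (0.106) were also above 0.1. The pairing comes from the data, and the labels do not state it. The biological coefficient of variation was 0.382 without and 0.322 with the block. Between any pair of libraries in one region, counts differed with a chi-square of at least 22.0 per degree of freedom, so no library repeated another.

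Alternatives were RLE factors, library totals, 2 other filters, DESeq2 1.42.0, limma 3.58.1 voom with and without quality weights, only the 8 libraries, and libraries left out. The 33 gene lists and the naming of genes were chosen with earlier results of these data known. The rule for named genes took NOTCH3, ELN and FBN1, each gene with a symbol called without the block, and from every list the 4 members of smallest p with the block plus at most 4 others called in either fit. It also took, among genes called with the block with 1 sign in all 4 pairs, the 15 largest changes in each direction at a mean log2 CPM from 1 upwards, and the 5 largest from 5 upwards. HOXA11, HOXB4, HOXC9, HOXD4, HOXD8 and MYH11 were named after their values were seen. The rule gave 166 genes. Some are not reported here. Of the 105 of them given with values, 13 have a gene model that overlaps another tested protein-coding gene, among them COL4A3, CRMP1, HOXA4, HOXC4, LRRC17, PRSS53, EMILIN2, FABP3 and ANGPT2, and their counts are less certain. Ratios of summed counts carry 95% intervals for counting error only.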

Additional observations from a re-analysis of the deposited data

Results flagged for a closer look

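In 14 of 216 groups of 4 libraries, 1 library lay far from the other 3 of its region by Dixon's test, a share near the 1 in 20 that chance gives. The groups cover the 105 genes given with values and also library totals, TMM factors and the share of counts in the most abundant genes. All 14 are groups of a named gene. No cause was tested. In infrarenal replicate 1, HES4 stood at 215 CPM where the other infrarenal libraries held 58.9 to 84.6, ADRA2C at 1013 (others 258 to 372), DUSP1 at 1048 (others 326 to 353) and PRSS53 at 38.3 (others 17.1 to 20.3). In infrarenal replicate 4, HOXA10 stood at 24.8 CPM (others 40.03 to 42.5), NLGN4X at 3.90 (others 2.82 to 2.95), MINAR1 at 14.5 (others 1.77 to 3.41) and SULF2 at 65.5 (others 28.6 to 33.5). CRMP1 stood at 3.80 CPM in infrarenal replicate 3 (others 0.617 to 0.849).

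Among suprarenal libraries, DUSP1 stood at 2118 CPM (others 559 to 815) and MSR1 at 9.53 (others 1.39 to 2.22) in replicate 1, and RGS2 at 30.1 (others 11.3 to 13.8) in replicate 2. In replicate 3, PTP4A1 stood at 33.6 CPM (others 58.0 to 59.5), and HOXD10 at 0.571 where the other 3 were at 0.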

How the results depend on the processing

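The count of called genes depended on the fit, and the cause was not tested. It was 32 in the fit reported, 84 with the replicate block, 52 when scaled by library totals alone, 51 with no filter beyond 1 count, 167 with DESeq2, 15 with limma voom, 94 with voom and library quality weights, and 88 without infrarenal replicate 1 and suprarenal replicate 3. With the block it was 155 without those 2 libraries, and, in alternatives chosen after seeing the data, 80 with library totals, 85 with RLE factors and 66 with voom. With only the 8 libraries edgeR called 0 without the block (554 genes at an unadjusted p under 0.05) and 1 with it. Leaving out 1 library gave 3 to 53 genes without the block and 0 to 99 with it (83, 18 and 19 without infrarenal replicate 1, 2 or 4, and 0, 78, 99 and 11 without suprarenal replicate 1, 2, 3 or 4). It stayed within 1.5 times at 22 with RLE factors and 33 with a CPM filter. The share lower in infrarenal aorta was 29 of 32 in the fit reported, 63 of 84 with the block, 120 of 167 with DESeq2, 6 of 15 with voom and 50 of 94 with quality weights. The median of all genes was -0.084 with library totals.

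NOTCH3 was not called in the fit reported (log2 difference 1.09) and passed with the replicate block (1.09), with DESeq2 (1.10), and with the block without infrarenal replicate 1 and suprarenal replicate 3 (1.22), with RLE factors (1.11) or with voom (1.10). Without 1 library its difference was 1.01 to 1.18 without the block, where it passed only without descending replicate 1 (adjusted p = 0.0364), and 1.00 to 1.26 with the block, where it passed without infrarenal replicate 1 (1.20) or suprarenal replicate 2 (1.26) or 3 (1.11). ELN and FBN1 stayed negative and uncalled in each alternative run. None of the 105 genes given with values changed sign in any alternative run. Most of them were chosen by p, calls or pair signs in these same libraries, so their stable signs were largely set by that choice. The pairing changed the call of the genes said above to have passed in one fit only.

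Of 416 list medians under alternatives, 23 moved by at least the SD, over the 4 pairs, of the list's mean log2 CPM difference. Among them were the endothelial (1.17 without suprarenal replicate 3), lymphocyte (0.55 without it), Schwann cell and elastic fibre medians. An odd library widens this SD, so the count of 23 does not measure how stable the medians are. The ribosomal median, 0.48 with all libraries and -0.12 without infrarenal replicate 1, is not among the 23. At 4 libraries a region, with libraries of unlike composition, an uncalled gene may still differ.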
